A study of Mus musculus with 18 samples.

Results

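The difference between the posterior and the anterior piece of the body axis was compared between mouse embryos that lacked Meis1 and Meis2 (double knockout, DKO) and control embryos at embryonic day 9. In each of 9 embryos the regional difference of a gene was taken as log2 CPM (counts of the gene in 1000000 counts of the library) in the posterior piece minus log2 CPM in the anterior piece, so that a value above 0 means a higher level posteriorly. The set holds 5 control and 4 DKO embryos, which make up all 18 libraries of the series, and 16428 genes were counted deeply enough to be tested. The estimate reported for a gene is the log2 regional difference in DKO embryos minus that in control embryos, fitted to the counts with edgeR with each embryo as its own reference. For genes near 0 in 1 piece this fitted value can be far from the difference between the means of the embryos' own values, which is what limma on the 9 differences gives. An estimate above 0 can come from a higher posterior level, a lower anterior level, or both, so for the genes described at most length the levels of both pieces are given, and for others those of 1 piece or of none.

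The DKO embryos carried conditional deletions of Meis1 and Meis2 made by Delta1Cre, a Cre recombinase that follows the Notch ligand gene Dll1, which is active in the mesoderm that forms somites. The genotype of the other embryos is given only as control, and whether they carried Cre or conditional alleles is not given in the sources used here. Posterior libraries held the axial bud and the 10 to 12 youngest somites, anterior libraries the older part of the axis that bears somites, and the regions ahead of the somites were left out. Control embryos 1 to 5 had 23, 20, 24, 21 and 23 somites and were labelled female, female, male, female and male. DKO embryos 1 to 4 had 22, 24, 20 and 23 somites and were labelled female, male, female and male. The pieces were dissected by hand and sequenced whole, so neural tube, ectoderm, gut, vessels and blood were measured together with the somites, and tissues outside the Cre lineage may keep both genes. In such bulk samples fewer cells of a type and less RNA per cell cannot be told apart.

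Meis proteins are homeodomain transcription factors of the TALE class, which bind DNA together with Pbx and Hox proteins. Hox genes are switched on in order along the axis and give each somite its position, while retinoic acid made in the trunk mesoderm by Aldh1a2 is removed in the tail bud by Cyp26a1. Somites arise from presomitic mesoderm at the tail end and later split into sclerotome, which forms vertebrae, and dermomyotome, which forms skin mesenchyme and muscle. The stated aim of the experiment was to find Meis targets in skeletal patterning along the axis, with early patterning and later somite differentiation kept apart by cutting each embryo in 2 pieces. The comparison described here asks which genes differed more, or less, between the pieces when Meis1 and Meis2 were deleted.

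The expected counts per library summed to 12.7 to 38.2 M (1 M being 1000000 counts), and 3 counts, the limit set on a gene with no count, correspond to 0.0786 to 0.237 CPM. The pieces carried the marker genes of their labels in all 9 embryos. T, the axial bud regulator Brachyury, was 4.17 to 4.90 higher in the posterior piece on the log2 scale, Tbx6 of presomitic mesoderm 5.80 to 7.0, and Myog of differentiating muscle was −7.29 to −2.40. Control embryo 1, labelled female, went against its label, with Xist at 0.340 and 0.211 CPM and genes of the Y chromosome at 151 and 162 CPM. Control embryo 3 stood apart in its Hox genes: Hoxd9 was at 16.1 CPM in its anterior piece and at 0.259 to 0.620 CPM in the anterior pieces of the other controls. Without control 1 no gene passed the test and 733 had an unadjusted p under 0.05; without control 3 the counts were 0 and 711.

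No gene passed the test for a changed regional difference. With edgeR's quasi-likelihood test and Benjamini-Hochberg adjustment at 0.05, 0 of 16428 genes (0%) were called, and 860 genes (5.23%) had an unadjusted p under 0.05. Of these, 476 (2.9%) had the higher and 384 (2.34%) the lower regional difference in DKO embryos. On the 9 differences limma likewise called 0 genes, with 923 at an unadjusted p under 0.05, and DESeq2 called 9 with 640 at an unadjusted p under 0.05. On simulated counts with the same design, 200 genes with a mean of at least 50 counts were changed. The edgeR test called 82% of those given a log2 estimate of 1 and 49% of those given 0.5. It also called 12 unchanged genes in that run. These rates do not cover genes with fewer counts or runs with another number of changed genes. The smallest adjusted p, 0.361, was shared by 6 genes, namely Cdkn1c, Ccng1, Bnc1, Sema6c, Ephb1 and Gm38287. Of these, Gm38287 had no count in the anterior pieces of DKO embryos. Its estimate was 9.59 with edgeR, 2.96 with limma and 1.64 without DKO embryo 3.

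The size of the regional contrast as a whole overlapped between the genotypes. Its spread, the standard deviation of the regional differences over all tested genes, was 0.836, 0.835, 0.806, 0.886 and 0.937 in the control embryos and 0.862, 0.848, 0.901 and 0.906 in the DKO embryos. These groups overlapped, and their means of 0.860 ± 0.0519 (SD, n = 5) and 0.880 ± 0.0286 (SD, n = 4) differed by less than the spread between embryos (exact two-sided permutation test, p = 0.532; the smallest p this design allows is 0.00794). The slope of an embryo's regional differences on the mean of the other 8 embryos was 0.928 ± 0.0704 in controls and 0.952 ± 0.0231 in DKO embryos (exact two-sided permutation test, p = 0.587). Of all tested genes, 8439 (51.4%) had an estimate above 0, and the median estimate was 0.01. The DKO values did not overlap the control values in 161 genes (0.98%) with higher and 119 genes (0.724%) with lower regional differences in DKO embryos.

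Among genes whose differences did not overlap, the 10 largest estimates in each direction were described for protein-coding genes with a mean of at least 50 counts. The absence of overlap was part of this choice and is no support for their direction. Of the 10 genes with a higher regional difference in DKO embryos, 4 (Upk3b, Bnc1, Kirrel3 and Pgm5) had anterior CPM in every DKO embryo below every control, with overlapping posterior levels. In 3 of them (Zfp365, Gm12184 and Ddit4l) the posterior CPM of every DKO embryo lay above every control, with overlapping anterior levels, and in the other 3 (Nfe2, Hebp1 and Spon2) both pieces overlapped. Of the 10 genes with a lower regional difference, 4 (Alx1, Slitrk6, Smyd1 and Ephb1) had posterior levels below every control. Both Ppp1r16b and Cd82 had anterior levels above every control, and the other 4 (Ebf3, Celf3, Cpne5 and Gfra1) overlapped in both pieces. Over all tested genes, anterior levels lay below every control in 2.5% and above in 2.36%, and posterior levels below in 2.09% and above in 2.14%; the leading genes were chosen on the same values, so nothing is read from their shares.

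**Figure D1:**
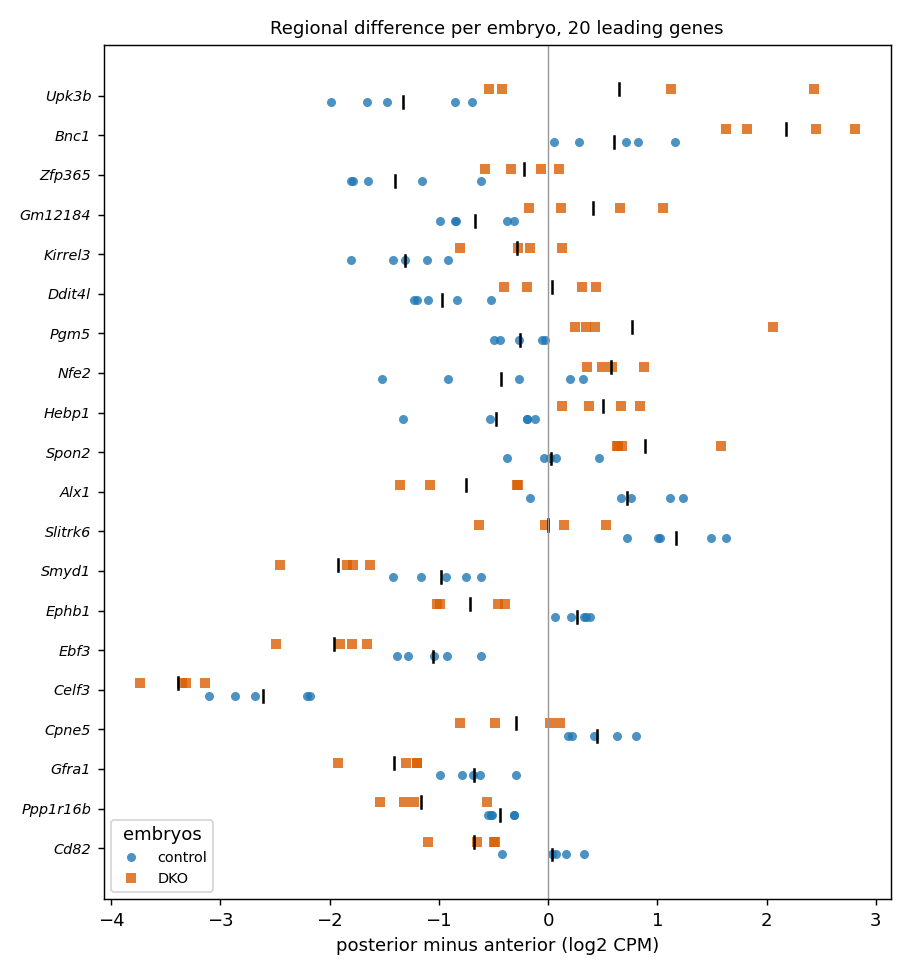
Regional difference (posterior minus anterior, log2 CPM) of the 20 leading genes in each of 5 control embryos (blue circles) and 4 DKO embryos (orange squares), with black bars at the group means. DKO embryos lie to the right of all controls in the first 10 genes and to the left in the last 10, as the choice of genes requires; Pgm5 of DKO embryo 1 at 2.06 stands apart from the other DKO embryos, and Upk3b of that embryo is at 2.43.

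Bnc1 (ENSMUSG00000025105, chr7:81966672-81992292, minus strand in GRCm38) encodes basonuclin 1, a zinc finger protein found in keratinocytes and in mesothelium, the lining of the body cavities. Its anterior level was 6.17, 5.04, 9.26, 4.54 and 6.22 CPM in control embryos 1 to 5 and 1.2, 2.11, 1.91 and 2.28 CPM in DKO embryos 1 to 4. Its posterior level was 10.2, 8.98, 9.58, 10.3 and 7.59 CPM in controls and 8.93, 7.68, 10.8 and 7.22 CPM in DKO embryos. All 4 anterior DKO pieces were thus below the lowest control, while the posterior pieces of both genotypes shared 1 range. The regional difference was 0.61 ± 0.44 (SD, n = 5) in controls and 2.18 ± 0.55 (SD, n = 4) in DKO embryos, with an estimate of 1.60 (SE 0.29, edgeR adjusted p = 0.361).

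Upk3b (ENSMUSG00000042985, chr5:136038496-136046487, plus strand) encodes a uroplakin of the bladder lining that is also made by mesothelium, and it had the largest estimate of the leading genes. Anterior levels were 4.7, 4.92, 5.68, 2.59 and 2.07 CPM in controls and 0.972, 0.927, 1.39 and 1.9 CPM in DKO embryos. Posterior levels were 1.63, 1.5, 1.36, 1.56 and 1.11 CPM in controls and 5.64, 2.13, 1.01 and 1.28 CPM in DKO embryos. DKO embryos 1 and 2 were above all controls posteriorly and DKO embryos 3 and 4 were not, and the estimate was 2.19 (SE 0.59, adjusted p = 0.774), or 1.47 without DKO embryo 1. The same embryos 1 and 2 also had the highest regional differences of the group for Afp (7.75, 6.43, 0.52 and 2.42 in DKO embryos 1 to 4), the fetal liver and yolk sac protein, and for Rbp4 (3.64, 2.49, 0.28 and 0.25), the carrier of retinol. The part of other tissue in the pieces in these values was not tested.

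For 4 of the leading genes (Upk3b, Bnc1, Alx1 and Slitrk6) the RefSeq table of promoters, 250 bases before to 50 after the start on GRCm38.p6, was searched on both strands for TGACAG, the core that Meis proteins bind. It was found in 19.177% of the 32851 windows of the table and in none of the 3 windows available, those of Upk3b, Bnc1 and Slitrk6. The table held no window for Alx1, so the promoter of that gene was not searched. The windows of Bnc1, the lead of the first group with the smallest p, and Slitrk6, from the second group, are shown since their composition differs, at 83.3% and 38.3% G and C. Both are printed in lower case because neither holds the searched letters, which says nothing about binding elsewhere.
Bnc1, chr7:81992250-81992549, minus strand: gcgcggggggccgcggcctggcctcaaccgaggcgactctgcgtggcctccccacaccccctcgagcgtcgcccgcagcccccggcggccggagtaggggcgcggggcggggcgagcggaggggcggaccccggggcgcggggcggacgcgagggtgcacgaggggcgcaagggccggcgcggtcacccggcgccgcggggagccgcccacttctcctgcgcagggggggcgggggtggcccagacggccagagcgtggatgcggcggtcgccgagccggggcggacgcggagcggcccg
Slitrk6, chr14:110755100-110755399, minus strand: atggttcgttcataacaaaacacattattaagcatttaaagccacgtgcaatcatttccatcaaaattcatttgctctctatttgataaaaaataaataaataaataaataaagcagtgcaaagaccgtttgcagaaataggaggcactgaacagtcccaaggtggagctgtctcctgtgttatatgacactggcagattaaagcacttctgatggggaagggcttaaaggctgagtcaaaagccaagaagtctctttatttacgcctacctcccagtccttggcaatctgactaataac

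Genes with a higher posterior level in DKO embryos formed another set. Zfp365, a zinc finger gene, was at 6.57, 6.0, 4.51, 5.17 and 5.31 CPM anteriorly in controls and 6.72, 4.12, 5.66 and 6.15 CPM in DKO embryos, where the groups overlapped. Posteriorly it was at 1.82, 1.68, 2.93, 2.28 and 1.64 CPM in controls and 7.19, 3.25, 5.39 and 4.1 CPM in DKO embryos, all above the controls, for an estimate of 1.22 (SE 0.27, adjusted p = 0.499). Ddit4l, an inhibitor of mTOR signalling, was at 3.72, 2.71, 4.79, 2.89 and 4.25 CPM posteriorly in controls and 7.84, 5.23, 6.03 and 6.91 CPM in DKO embryos, with an estimate of 1.04 (SE 0.22). In both genes the control embryos had the lower level posteriorly and the DKO embryos a nearly even level across the pieces, with mean regional differences of −0.22 ± 0.30 (SD, n = 4) and 0.04 ± 0.40 (SD, n = 4). Gm12184, a predicted gene, had an estimate of 1.11 (SE 0.24).

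The other genes of this direction differed in where the values came from. Kirrel3, an adhesion molecule of the immunoglobulin family, was at 6.91, 4.22, 4.43, 4.25 and 4.47 CPM anteriorly in controls and 3.23, 3.6, 3.58 and 3.56 CPM in DKO embryos, and its estimate was 1.06 (SE 0.26). Pgm5, a phosphoglucomutase relative found at adhesion sites, was at 28.5, 25.8, 24.2, 25.2 and 24.4 CPM anteriorly in controls and 3.4, 15.1, 6.81 and 9.09 CPM in DKO embryos. Its 4 DKO values thus lay well under the controls, and its estimate was 1.03 (SE 0.30), or 0.62 without DKO embryo 1. Hebp1, a haem-binding protein, and Spon2, a matrix protein, had estimates of 0.96 (SE 0.25) and 0.88 (SE 0.28) with both pieces overlapping between genotypes.

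Alx1 (ENSMUSG00000036602, chr10:102998707-103030215, minus strand), a homeobox gene of facial and body wall mesenchyme, had the lowest estimate of the leading genes. Posterior levels were 8.41, 6.75, 9.38, 8.3 and 5.89 CPM in controls and 1.02, 2.48, 1.39 and 3.38 CPM in DKO embryos, so that every DKO embryo was below every control. Anterior levels were 3.51, 4.22, 10.5, 3.79 and 3.43 CPM and 2.26, 3.04, 3.7 and 4.11 CPM and overlapped. The estimate was −1.45 (SE 0.33, adjusted p = 0.561), from a regional difference of 0.72 ± 0.55 (SD, n = 5) in controls and −0.75 ± 0.55 (SD, n = 4) in DKO embryos. Slitrk6 (chr14:110748580-110755149, minus strand), a membrane protein of nerve cells and otic tissue, showed the same arrangement with 6.65, 6.4, 6.61, 6.16 and 5.17 CPM posteriorly in controls and 1.89, 2.86, 1.12 and 1.79 CPM in DKO embryos. Its control embryos were all higher in the posterior piece, its DKO embryos were at 0.53, 0.15, −0.64 and −0.03, and its estimate was −1.16 (SE 0.29, adjusted p = 0.657).

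Ephb1 (chr9:101922128-102354693, minus strand), a receptor for membrane-bound ephrins, had regional differences of opposite sign in the 2 genotypes. They were 0.34, 0.33, 0.38, 0.21 and 0.06 in control embryos 1 to 5 and −1.02, −0.46, −0.99 and −0.40 in DKO embryos 1 to 4, all 5 above 0 and all 4 below. Anterior levels were 5.33, 5.11, 5.21, 5.92 and 6.03 CPM in controls and 7.98, 7.26, 6.01 and 6.64 CPM in DKO embryos, and posterior levels were 6.78, 6.44, 6.81, 6.87 and 6.28 and 3.9, 5.27, 2.99 and 5.02 CPM. The estimate was −0.99 (SE 0.18, adjusted p = 0.361). Cdkn1c (chr7:143458339-143461050, minus strand), an imprinted inhibitor of the cell cycle that had the smallest unadjusted p of all genes (3.86e-05), lay outside the rule for naming genes and was chosen after its values were seen. It was at 247, 194, 270, 239 and 227 CPM anteriorly in controls and 343, 381, 258 and 316 CPM in DKO embryos, and at 222, 208, 202, 216 and 220 and 193, 246, 136 and 205 CPM posteriorly. Both pieces overlapped, while the differences of −0.13 ± 0.19 (SD, n = 5) and −0.75 ± 0.15 (SD, n = 4) did not, for an estimate of −0.62 (SE 0.10).

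**Figure D2:**
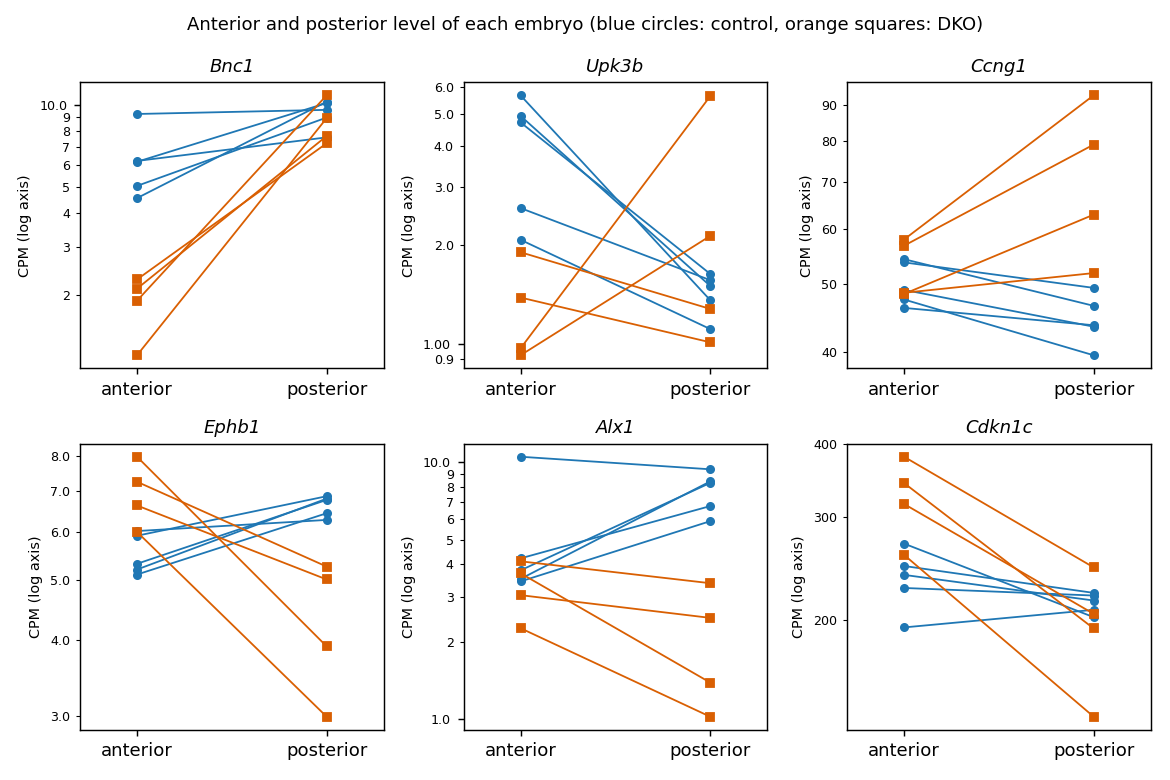
Level in CPM (log axis) of 6 genes in the anterior and posterior piece of each embryo, joined by a line per embryo (blue circles, 5 control embryos; orange squares, 4 DKO embryos). Bnc1 and Upk3b start lower anteriorly in DKO embryos, with Bnc1 at 1.20 to 2.28 CPM against 4.54 to 9.26 CPM in controls, while Alx1 and Ephb1 end lower posteriorly and Ccng1 is higher posteriorly in all 4 DKO embryos.

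The remaining leading genes with a lower regional difference had higher levels anteriorly than posteriorly in most embryos. Smyd1, a histone methyltransferase of muscle, had an estimate of −0.99 (SE 0.25), with 2.74, 2.75, 2.72, 2.89 and 2.09 CPM posteriorly in controls and 1.17, 1.95, 1.28 and 0.871 CPM in DKO embryos. Ebf3, a transcription factor of mesoderm and neurons, had an estimate of −0.88 (SE 0.18, edgeR adjusted p = 0.499), and DESeq2 gave it an adjusted p of 0.0107. Celf3, a neuronal RNA-binding protein, and Gfra1, a receptor subunit for GDNF, had estimates of −0.83 (SE 0.23) and −0.75 (SE 0.19). For Ppp1r16b, a phosphatase subunit, Cpne5, a copine, and Cd82, a tetraspanin, the estimates were −0.72, −0.78 and −0.72. In Ppp1r16b the anterior level was 16.4, 14.1, 13.8, 15.3 and 14.3 CPM in controls and 22.8, 16.4, 27.5 and 22.3 CPM in DKO embryos, every DKO embryo above every control, though DKO embryo 2 by less than the rounding.

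Reads of the deleted genes were present in every library, and counts summed over a gene cannot tell whether the deleted exons were read. Meis1 (chr11:18879817-19018985, minus strand) was at 121, 113, 135, 127 and 130 CPM anteriorly in controls and 89.8, 111, 98.3 and 108 CPM in DKO embryos, and at 92.6, 59.6, 99.9, 87.1 and 83.1 and 49.2, 72, 46.7 and 62.3 CPM posteriorly. Meis2 (chr2:115863064-116065839, minus strand) was at 196, 184, 191, 177 and 203 and 130, 157, 139 and 146 CPM anteriorly and at 147, 117, 151, 139 and 162 and 97.5, 116, 93.3 and 91.2 CPM posteriorly. In the anterior pieces both genes were lower in every DKO embryo than in every control; in the posterior pieces Meis2 was, while Meis1 overlapped through control embryo 2. DKO embryo 2 had the highest level of the 4 DKO embryos for each gene in each piece. The regional difference of Meis1 had an estimate of −0.25 (SE 0.11, adjusted p = 0.851) and that of Meis2 −0.11 (SE 0.083, adjusted p = 0.864), and the embryos of both genotypes overlapped in both. The estimate of Meis2 ran from −0.17 without control embryo 2 to −0.058 without DKO embryo 4.

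Of the 9 embryos, DKO embryo 2 moved the counts most when left out. Without it, 1841 genes had an unadjusted p under 0.05 instead of 860, the embryos did not overlap in 1290 genes instead of 280, and 2 genes passed the adjusted threshold. These were Ccng1 (estimate 0.69, adjusted p = 0.0328) and Itih5, a hyaluronan-binding protein named after its values were seen (estimate −1.42, adjusted p = 0.0279). With any other embryo left out, 0 genes passed and 678 to 962 had an unadjusted p under 0.05. The embryos then did not overlap in 424 to 596 genes, since overlap is rarer with fewer embryos. The part of the retained Meis1 and Meis2 reads of DKO embryo 2 in the higher counts without it was not tested.

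Among the TALE partners of Meis, none of the 6 described here (Meis3, Pbx2, Pbx3, Pbx4, Pknox1 and Pknox2) had an unadjusted p under 0.05, and their median estimate was 0.02 (−0.011 without control embryo 5) beside 0.01 for all genes. The estimates ran from −0.07 for Pbx3 to 0.32 for Pbx4, with Meis3 at 0.01 (SE 0.087). Pbx3 was at −0.034 without DKO embryo 1 and Pbx4 at 0.12 without control embryo 5.

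Of the retinoic acid pathway, 19 genes were tested (Lrat had at most 3 counts); 11 had an estimate above 0 and 5 an unadjusted p under 0.05, all with the higher regional difference in DKO embryos, beside 51.4% and 2.9% of all genes. The median estimate was 0.17. Aldh1a2 (chr9:71215789-71296243, plus strand), which makes retinoic acid, was at 144, 182, 104, 132 and 113 CPM anteriorly in controls and 51.9, 66.6, 81.8 and 75.7 CPM in DKO embryos, with no overlap. Posteriorly it was at 129, 89.6, 135, 119 and 108 CPM in controls and 91.3, 130, 76.3 and 85.9 CPM in DKO embryos, which overlapped. The regional differences were −0.15, −1.02, 0.38, −0.15 and −0.06 in controls and 0.81, 0.97, −0.10 and 0.18 in DKO embryos. They overlapped, and the estimate was 0.68 (SE 0.26, adjusted p = 0.851).

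Cyp26a1 (chr19:37697798-37701536, plus strand), which breaks retinoic acid down in the tail bud, was at 39.2, 51.4, 40.3, 45.2 and 38.5 CPM posteriorly in controls and 48.6, 40.3, 75 and 60.5 CPM in DKO embryos. Anteriorly it was at 3.23, 2.44, 5.29, 2.01 and 4.21 and 1.94, 3.6, 1.85 and 1.73 CPM, so that all 9 embryos had the higher level posteriorly, and the estimate was 0.90 (SE 0.39, adjusted p = 0.851). Stra6, the cell surface receptor for retinol carriers, had an estimate of 0.24 (SE 0.085), and Dhrs3, which turns retinal back into retinol, 0.45 (SE 0.17). Rbp4 had an estimate of 1.63 (SE 0.72), or 0.91 without DKO embryo 1, with posterior levels of 9.92, 4.47, 3.1 and 4.0 CPM in DKO embryos against 1.19, 3.14, 2.02, 1.16 and 2.81 CPM in controls. The nuclear receptors did not reach an unadjusted p of 0.05: Rara was at −0.05 (SE 0.083), Rarb, itself switched on by retinoic acid, at −0.19 (SE 0.25) and Rarg at 0.25 (SE 0.17). The number of genes of the pathway at an unadjusted p under 0.05 ran from 1, without DKO embryo 1, to 6, without DKO embryo 3, when single embryos were left out, and was 10 with no filter on low counts. The median was 0.0021 without DKO embryo 3.

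**Figure D3:**
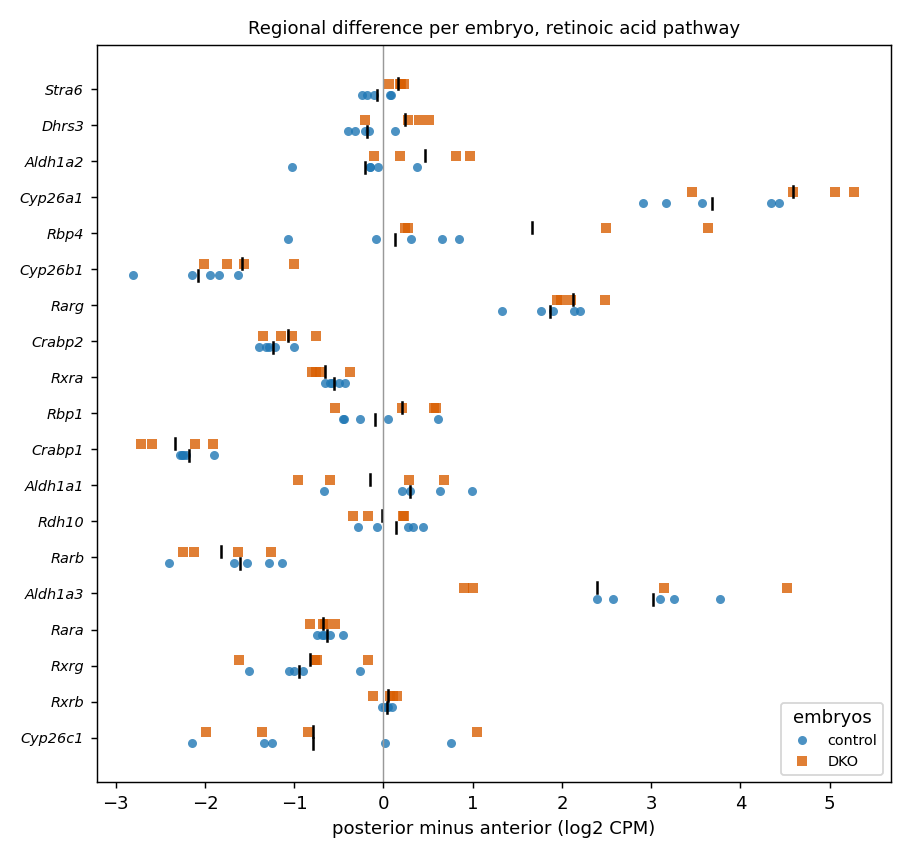
Regional difference (posterior minus anterior, log2 CPM) of the 19 tested genes of the retinoic acid pathway in each control embryo (blue circles) and DKO embryo (orange squares), ordered by p, with black bars at the group means. Cyp26a1 lies at 2.91 to 5.28 in all embryos, and the genotypes overlap in every gene.

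Hox genes of the later paralogue groups had the larger regional differences in both genotypes. Genes of paralogue groups 1 to 4, which act in the hindbrain and neck, had mean regional differences of −0.14, 0.24, −0.11, −0.04 and 0.10 in the control embryos and 0.23, −0.10, 0.47 and 0.21 in the DKO embryos. For groups 9 to 13, which act in the lower trunk and tail, these means were 6.36, 5.77, 4.75, 6.32 and 6.26 and 6.57, 6.52, 5.93 and 6.35. All 12 genes of groups 1 to 4 had an estimate above 0 (median 0.19), as had 9 of 11 of groups 5 to 8 (median 0.19) and 12 of 15 of groups 9 to 13 (median 0.82), beside 51.4% of all genes. The first of these medians fell to 0.062 without DKO embryo 3, and that of groups 5 to 8 ran from 0.036 without DKO embryo 4 to 0.38 without DKO embryo 2. Genes of a Hox cluster share transcripts and control and are not independent readings. An unadjusted p under 0.05 was reached by 2, 1 and 1 genes of these groups, all with the higher regional difference in DKO embryos. Over all genes the share in this direction was 2.9%. Single genes of 11 and 15 are too few to compare with it.

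Those genes were Hoxa4 (0.46, SE 0.19; 0.69 without DKO embryo 2), Hoxd3 (0.27, SE 0.12), Hoxc5 (0.78, SE 0.26) and Hoxd9 (3.65, SE 1.48). Hoxc5 was at 37.5, 33.9, 45.9, 33.3 and 34.9 CPM anteriorly in controls and 28.6, 46.3, 15.8 and 26.2 CPM in DKO embryos, and at 24.5, 24.4, 19.4, 19 and 21.7 and 29.8, 25.2, 26.6 and 31.1 CPM posteriorly. Its annotated span, chr15:102967443-103017429, plus strand, contains Hoxc6, Hoxc8 and Hoxc9, and that of Hoxd3 contains Hoxd4, so counts within each cluster may be split between neighbours. Hoxd9 had regional differences of 5.90, 6.07, 1.32, 6.99 and 7.35 in controls and 7.89, 7.49, 8.71 and 7.08 in DKO embryos, control embryo 3 far below the others, and its estimate was 1.37 without that embryo, and 2.27 with limma and 2.35 with DESeq2 on all 9. Among genes of groups 9 to 13, Hoxc12, Hoxc13, Hoxd12 and Hoxa13 had no anterior count in either genotype. With these and 1 more gene at no more than 3 anterior counts in each genotype left out, since they carry no fold to compare, 8 of the other 10 genes were above 0 and their median was 1.18. The median of the whole list ran from 0.11 without control embryo 2 to 1.02 without DKO embryo 3 and was 0.27 with limma on all 9. Hoxd10 had an estimate of 3.46 with all embryos, −0.07 without control embryo 3, and 0.99 with limma and 1.05 with DESeq2 on all 9.

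Of the axial bud genes, 8 of 20 had an estimate above 0, and the median was −0.05 (−0.0047 without DKO embryo 4). An unadjusted p under 0.05 was reached by 4 of them, Nkx1-2 and Sp5 in the lower and Wnt5a and Cyp26a1 in the higher direction, beside 5.23% of all genes. Wnt5a (chr14:28504750-28527448, plus strand), a ligand that guides outgrowth of the bud, was at 49.6, 45.4, 59.8, 42.4 and 43.3 CPM anteriorly in controls and 29.3, 36.5, 27.4 and 30.9 CPM in DKO embryos, all below the controls. Posteriorly it was at 148, 185, 158, 159 and 169 and 184, 151, 237 and 141 CPM, and the estimate was 0.72 (SE 0.20, adjusted p = 0.804). Nkx1-2 (chr7:132594878-132599637, minus strand), a homeobox gene of the caudal epiblast, had regional differences of 2.87, 2.86, 3.25, 2.71 and 2.92 in controls and 2.29, 2.57, 2.55 and 2.36 in DKO embryos. These did not overlap, for an estimate of −0.47 (SE 0.11, adjusted p = 0.608), although the levels of both pieces overlapped. Sp5, a target of Wnt signalling, was at 5.78, 9.37, 6.77, 8.79 and 8.42 CPM anteriorly in controls and 17.5, 9.88, 18.9 and 12.3 CPM in DKO embryos, all above the controls, with an estimate of −0.52 (SE 0.22; −0.31 without DKO embryo 3, −0.73 without DKO embryo 2). T and Cdx2, core regulators of the bud, had estimates of −0.04 (SE 0.15) and −0.06 (SE 0.70).

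In the presomitic mesoderm and segmentation list, 11 of 23 estimates were above 0, the median was −0.05, and 2 genes in each direction had an unadjusted p under 0.05, beside 2.9% of all genes in the higher and 2.34% in the lower direction. In 2 of the 23 genes, both genotypes had no more than 3 counts in 1 piece, which leaves no fold to compare. Without these, 9 of 21 were above 0 and the median was −0.06. Uncx, which marks the caudal side of each somite, had regional differences of 1.19, 0.22, 0.81, 0.68 and 1.88 in controls and −0.09, 0.67, −0.25 and 0.27 in DKO embryos and an estimate of −0.79 (SE 0.28). Notch1, the receptor of the segmentation clock, had −0.25 (SE 0.11), Spry2, a feedback inhibitor of FGF signalling, 0.38 (SE 0.16; 0.23 without control embryo 3), and Ripply1, which ends segment formation, 1.16 (SE 0.43) at levels under 3 CPM. Dll1, whose regulation drives the Cre, was at 65.1, 59.1, 64.3, 68.6 and 63.2 CPM anteriorly in controls and 99.4, 92.6, 77.8 and 73.6 CPM in DKO embryos, and its estimate was −0.28 (SE 0.14). The median of this list was 0.19 without DKO embryo 2.

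Sclerotome genes had an estimate above 0 in 1 of 12 cases, beside 51.4% of all genes, with a median of −0.08 that ran from −0.25 without control embryo 2 to 0.012 without DKO embryo 3. An unadjusted p under 0.05 was reached by 1 gene in the lower direction, beside 2.34% of all genes. A single gene of 12 is too few to compare with that share. It was Foxc2, a forkhead factor of somites and vertebrae, at 71, 73.1, 73.7, 70.5 and 102 CPM posteriorly in controls and 49.3, 59.5, 40.2 and 61.4 CPM in DKO embryos, every DKO embryo below every control. Its anterior levels of 29.9, 42.5, 32.1, 39 and 31.2 and 31.7, 23.7, 41.1 and 40.8 CPM overlapped, and its estimate was −0.52 (SE 0.24, adjusted p = 0.851), or −0.32 without DKO embryo 3. Pax1, which is needed for vertebral bodies, had group means of 54.2 ± 5.78 CPM anteriorly and 33.5 ± 6.63 CPM posteriorly in controls, and of 28.4 ± 10.3 and 17.6 ± 9.84 CPM in DKO embryos. Both means were lower in DKO embryos, and its regional difference had an estimate of −0.02 (SE 0.21). Meox1, a homeobox gene of all somites, had an estimate of −0.22 (SE 0.16).

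The dermomyotome and myotome list held 7 of 19 genes with an unadjusted p under 0.05, 5 in the lower and 2 in the higher direction, beside 2.34% and 2.9% of all genes, and its median was −0.16 (−0.28 with limma, −0.34 without DKO embryo 2). The 5 were Eya2 and Eya1, partners in switching on the muscle programme, Des, a muscle filament, Met, the receptor of migrating muscle precursors, and Mef2c, a muscle transcription factor. Eya2 (chr2:165595032-165771727, plus strand) was at 19.3, 15.2, 15.5, 15.1 and 14.9 CPM anteriorly in controls and 33.4, 24.7, 32.4 and 27.2 CPM in DKO embryos, all above the controls. Posteriorly it was at 12.4, 8.94, 12.5, 10.7 and 12 and 14, 16.5, 10.1 and 11.8 CPM, which overlapped, and the estimate was −0.66 (SE 0.19, adjusted p = 0.851). Met alone of the 5 had differences without overlap, beside 0.724% of all genes in this direction. The differences of Met were 0.17, 0.04, 0.18, 0.44 and 0.56 in controls and 0.00, −0.21, −0.20 and 0.00 in DKO embryos, with an estimate of −0.38 (SE 0.12).

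Estimates for the other muscle genes were −0.42 (SE 0.13) for Des, −0.27 (SE 0.11) for Eya1 and −0.31 (SE 0.12) for Mef2c. In the other direction stood Pax7, of dermomyotome and dorsal neural tube, at 0.42 (SE 0.16) with no overlap, and Myh3, embryonic myosin, at 1.23 (SE 0.52) with group means under 1 CPM posteriorly. Myog and Myf5, which commit cells to muscle, had wide errors, with estimates of −0.57 (SE 0.83) and −0.47 (SE 0.31). The number of genes of this list at an unadjusted p under 0.05 ran from 5 to 8 when single embryos were left out.

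Primitive erythroid genes had a median of 1.02, the highest of the lists when all tested members are counted (Hox groups 9 to 13 had 1.18 once 5 genes were left out), and all 17 tested genes had an estimate above 0. An unadjusted p under 0.05 was reached by 13 of them, beside 2.9% of all genes in this direction, and by 9 to 15 when single embryos were left out. These genes are read from 1 kind of circulating cell and are not independent of each other. The mean regional difference of the list was −0.66, 0.50, 0.10, −0.79 and −1.57 in control embryos 1 to 5 and 0.13, 0.44, 0.41 and 0.61 in DKO embryos 1 to 4. Control embryos 1, 4 and 5 had less of these transcripts posteriorly, while control embryos 2 and 3 lay within or near the range of the DKO embryos, so the groups overlapped.

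Hbb-y (chr7:103851749-103853216, minus strand), an embryonic beta globin, shows the pattern: anterior levels were 1412, 354, 837, 1091 and 1728 CPM in controls and 768, 751, 422 and 625 CPM in DKO embryos. Posterior levels were 832, 494, 875, 599 and 515 CPM in controls and 938, 993, 582 and 1220.4 CPM in DKO embryos. Both pieces overlapped, and the estimate was 1.09 (SE 0.35, adjusted p = 0.851). Alas2, which starts haem synthesis in red cells, had an estimate of 1.03 (SE 0.32), Slc4a1, the red cell anion exchanger, 0.93 (SE 0.29), and Gata1, the master regulator of red cells, 0.78 (SE 0.30). Nfe2, a globin regulator, was the single gene of the list without overlap, beside 0.98% of all genes in this direction. It is also among the leading genes, which were chosen for an absence of overlap. Its differences were −0.92, 0.32, 0.20, −0.26 and −1.52 in controls and 0.35, 0.59, 0.49 and 0.87 in DKO embryos. Globin genes of 1 cluster are close copies and reads may be split between them.

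**Figure D4:**
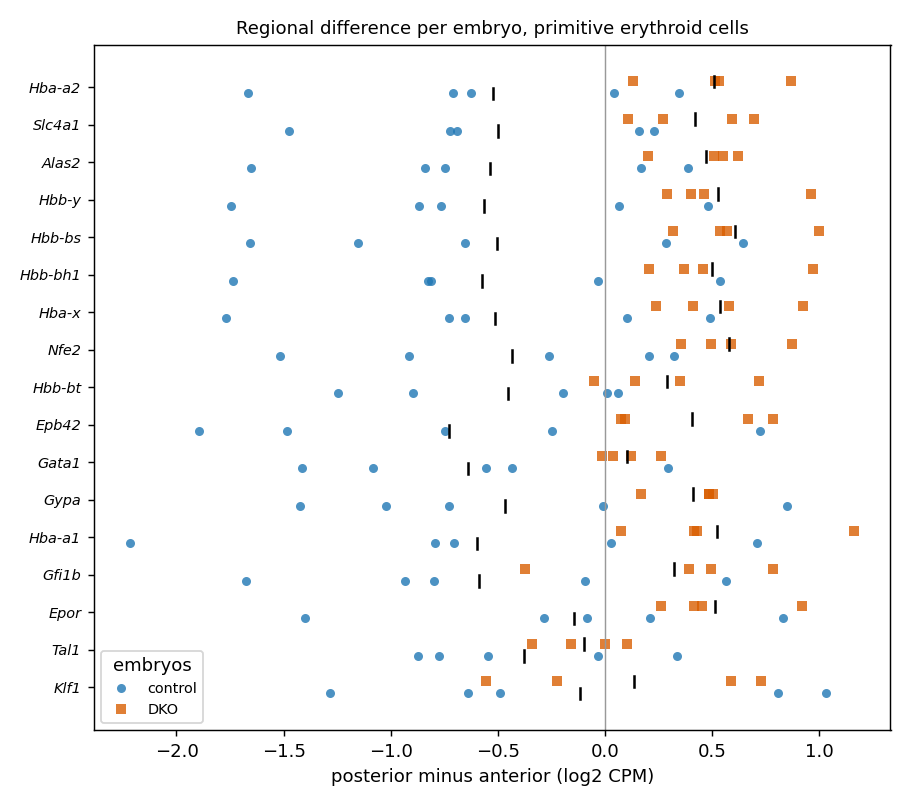
Regional difference (posterior minus anterior, log2 CPM) of the 17 tested primitive erythroid genes in each control embryo (blue circles) and DKO embryo (orange squares), ordered by p, with black bars at the group means. Control embryos 1, 4 and 5 lie to the left of 0 in most genes, and control embryos 2 and 3 lie among or near the DKO embryos.

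Of the endothelial genes, 6 of 16 had an estimate above 0, beside 51.4% of all genes, and the median was −0.03, running from −0.16 without DKO embryo 2 to 0.064 without DKO embryo 3. The mean regional difference of this list was −0.33, −0.50, −0.09, −0.05 and −0.17 in controls and −0.15, 0.27, −0.57 and −0.36 in DKO embryos. Pecam1 and Cdh5, which join endothelial cells, had estimates of −0.03 (SE 0.15) and −0.17 (SE 0.23). Lyve1, a hyaluronan receptor of lymphatic endothelium and macrophages, was the 1 gene with an unadjusted p under 0.05, near the share of 5.23% of all genes, at 1.08, 1.2, 1.17, 1.09 and 1.1 CPM anteriorly in controls and 0.143, 0.154, 0.231 and 0.173 CPM in DKO embryos. Its anterior DKO levels stood near the value that 3 counts give, all under the controls, and its estimate was 2.05 (SE 0.61, adjusted p = 0.851). Macrophage genes were near the limit of detection, with 4 tested genes summing to 2.55 to 11.3 CPM, and none had an unadjusted p under 0.05. Their median of −0.29 ran from −0.53 without DKO embryo 4 to 0.025 without control embryo 5.

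Among p53 targets, 11 of 12 had an estimate above 0, the median was 0.22, and 5 had an unadjusted p under 0.05, all with the higher regional difference in DKO embryos, beside 2.9% of all genes. In 3 of them, Ccng1, Sesn2 and Phlda3, the differences did not overlap, as in 0.98% of all genes in this direction. The mean regional difference of the list was 0.05, 0.07, −0.04, −0.02 and 0.08 in controls and 0.37, 0.11, 0.44 and 0.23 in DKO embryos. Every DKO embryo was thus above every control, DKO embryo 2 by the smallest margin. The summed level of the list was also above every control in both pieces, at 407 to 449 CPM in controls and 476 to 508 CPM in DKO embryos anteriorly, and at 420 to 444 CPM and 502 to 588 CPM posteriorly. The count at an unadjusted p under 0.05 ran from 2, without DKO embryo 3, to 6. The list was drawn up with p53 targets already seen among the differing genes, so it is no independent evidence of a direction. Pmaip1, a p53 target that the list leaves out, went the other way. Its estimate was −0.86 with no filter on low counts, and its unadjusted p was 0.0157 in the main edgeR test. It is named here after its values were seen.

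Ccng1 (chr11:40748552-40755311, minus strand), the cyclin G1 gene that p53 switches on, was at 47.6, 46.3, 53.7, 54.3 and 49.1 CPM anteriorly in controls and 57.9, 48.6, 56.8 and 48.5 CPM in DKO embryos. Posteriorly it was at 39.6, 43.7, 49.4, 46.6 and 43.5 CPM in controls and 92.9, 51.9, 79.1 and 62.8 CPM in DKO embryos, every DKO embryo above every control. All 5 control differences were below 0 (−0.26, −0.08, −0.12, −0.22 and −0.17) and all 4 DKO differences above it (0.68, 0.09, 0.48 and 0.37), and the estimate was 0.58 (SE 0.10, edgeR adjusted p = 0.361; DESeq2 adjusted p = 0.00497). Sesn2, a stress protein that restrains mTOR, was at 22.9, 22.4, 23.3, 23 and 18.3 CPM posteriorly in controls and 38.1, 32.6, 40.4 and 29.7 CPM in DKO embryos, with an estimate of 0.33 (SE 0.097). Phlda3, an Akt inhibitor, had 0.45 (SE 0.18; 0.29 without control embryo 2), Trp53inp1, a stress protein, 0.53 (SE 0.21), and Eda2r, a death receptor relative, 0.56 (SE 0.24). Cdkn1a, the p21 cell cycle inhibitor, had 0.44 (SE 0.21), while Mdm2, which degrades p53, had 0.07 (SE 0.078) and Bbc3, which promotes cell death, −0.07 (SE 0.12). Of the immediate early genes, which can respond to handling of tissue, 3 of 8 were above 0 beside 51.4% of all genes (median −0.16, or 0.0086 without control embryo 5). Jun, with an estimate of −0.25 (SE 0.11; −0.39 without DKO embryo 2), was the 1 with an unadjusted p under 0.05, beside 2.34% of all genes in this direction. Glycolysis and hypoxia genes had a median of 0.02 (−0.044 without DKO embryo 4) with 8 of 11 above 0 and none at an unadjusted p under 0.05.

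Other tissues of the pieces were read from further lists. Of 19 neural tube genes, 11 had an estimate above 0 (median 0.05, or −0.043 without DKO embryo 2), and Shh, the floor plate and notochord signal, had an unadjusted p under 0.05 with an estimate of −0.34 (SE 0.15; −0.21 without DKO embryo 3). Of 8 neural crest genes, 1 was above 0 (median −0.19, running from −0.43 without DKO embryo 2 to −0.090 without DKO embryo 3), and Erbb3, a receptor of crest and Schwann cell precursors, had an estimate of −0.36 (SE 0.15; −0.53 without DKO embryo 2, −0.24 without DKO embryo 3) at an unadjusted p under 0.05. Over all genes 51.4% were above 0 and 2.34% were at such a p in the lower direction. Heart genes had a median of 0.08 (5 of 9 above 0; −0.52 without control embryo 1 to 0.43 without control embryo 5) and surface ectoderm genes 0.15 (8 of 11; −0.023 without control embryo 3), with no gene at an unadjusted p under 0.05. Gut endoderm genes had a median of 0.16 (8 of 12 above 0; −0.067 without control embryo 2 to 0.58 without control embryo 4), also with none, and Afp spanned differences of −0.59 to 4.29 in controls and 0.52 to 7.75 in DKO embryos.

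Among 12 lateral plate and limb field genes, 6 were above 0 and the median was 0.00, running from −0.32 without control embryo 3 to 0.29 without control embryo 4. An unadjusted p under 0.05 was reached by 2 of them, beside 5.23% of all genes, and by 0 to 4 when single embryos were left out. Pitx1, the hindlimb homeobox gene, had differences of 8.70, 4.61, 4.63, 9.54 and 7.10 in controls and 6.49, 7.34, 8.87 and 8.56 in DKO embryos, and anterior levels of 0 to 1.87 CPM and 0.0346 to 0.2 CPM. Its estimate was 2.50 (SE 1.14) with edgeR, 0.90 with limma and 1.25 with DESeq2. Prrx1, of limb and body wall mesenchyme, had an estimate of 0.44 (SE 0.20; 0.24 without DKO embryo 3). Of 9 intermediate mesoderm genes, 5 were above 0 (median 0.11, or −0.18 with limma and −0.22 without DKO embryo 2), and 1, in the lower direction, had an unadjusted p under 0.05, beside 2.34% of all genes. Lhx1, a homeobox gene of the nephric duct, was at 9.57, 11.6, 8.73, 10.3 and 10.5 CPM posteriorly in controls and 1.4, 6.53, 3.26 and 5.02 CPM in DKO embryos, every DKO embryo below every control. Its estimate was −0.86 (SE 0.35, adjusted p = 0.851), while Pax2 and Wt1, of the same tissue, had estimates of 0.12 (SE 0.28) and 0.12 (SE 0.42).

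**Figure D5:**
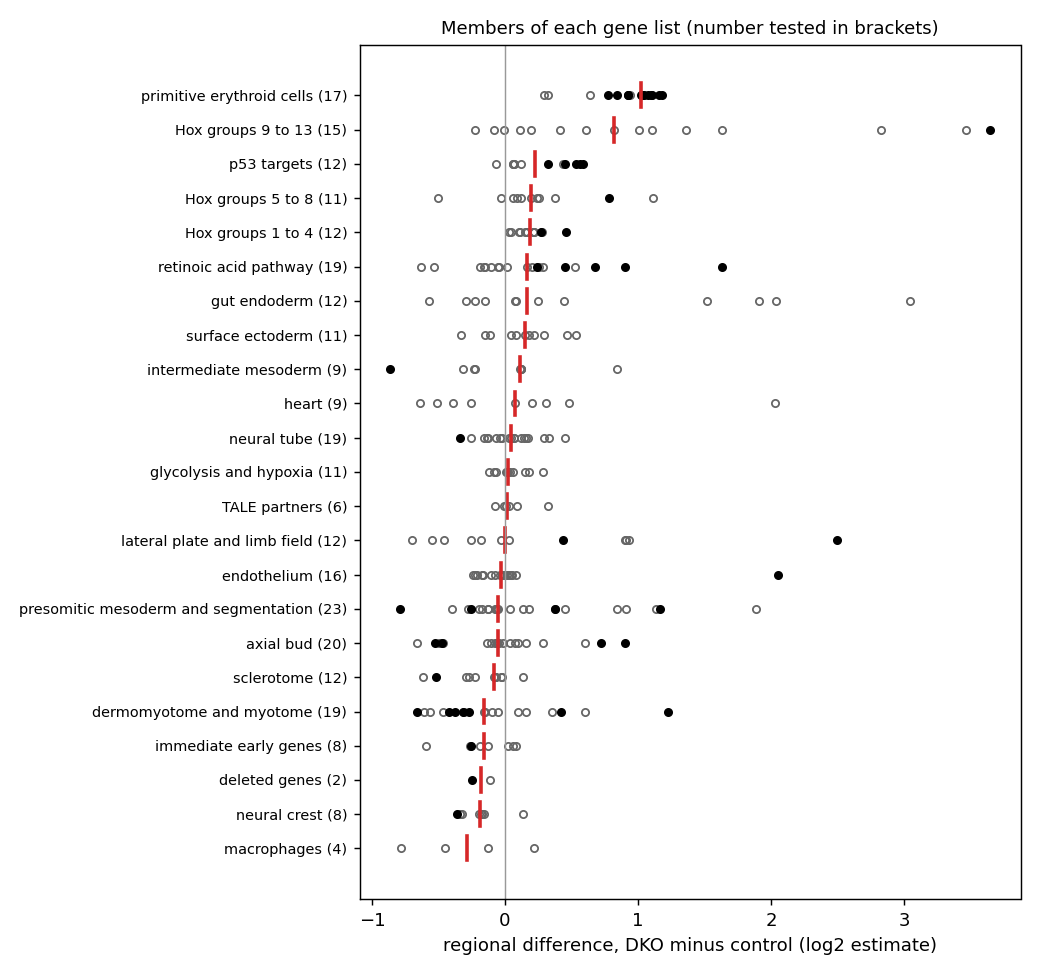
Estimate (regional difference in DKO minus control embryos, log2) of each tested member of the 23 gene lists, with the number tested in brackets, filled points where the unadjusted p was under 0.05, and red bars at the list medians. Medians run from −0.29 for macrophages to 1.02 for primitive erythroid cells, and no point passed the adjusted threshold.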

How the data were processed

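Poly(A) RNA of 18 pieces of 9 embryos had been sequenced from a single end. The authors deposited RSEM expected counts per Ensembl gene on GRCm38 in 1 table, per the submitters' processing notes and the file headers; the notes also name cutadapt and CASAVA, while the aligner, versions and use of strand are not given in the sources used here. Reads of antisense or overlapping genes can therefore not be told apart. Of 53465 gene identifiers, 53360 matched GENCODE M21, which gave symbols and coordinates, and 105 did not.

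Pieces were matched to embryos on genotype, sex label and somite number, each combination held by 1 anterior and 1 posterior library. After removal of group means, the pieces of 1 embryo correlated at 0.256 to 0.570 over genes and those of different embryos at −0.283 to 0.0916, and all 9 correlated best with their own, so the embryo entered as a block. The labels do not say whether embryos shared a litter; p-values measure the spread between these embryos. No 2 libraries were identical.

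The rounded counts were fitted with edgeR 4.0.16 in R 4.3.3: filterByExpr (minimum count 10, minimum total 15), TMM scaling, glmQLFit and glmQLFTest on the embryo, the region and the region in DKO embryos, with Benjamini-Hochberg adjustment over 16428 genes and a threshold of 0.05. The standard error is the estimate divided by the square root of F. Log2 CPM used a prior count of 2, and intervals from counts cover counting error only. The procedure was tested on simulated counts, where 4.66% of unchanged genes had an unadjusted p under 0.05. Alternatives were DESeq2 1.42.0, limma 3.58.1 on the 9 differences, other scalings and filters, no block, somite number or sex label by region, and leaving out each embryo.

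Named genes were those past the threshold, the 10 leading protein-coding genes in each direction without overlap, up to 3 members of each list with the smallest p, those of the deleted genes, TALE and retinoic acid lists with an unadjusted p under 0.05, and Meis1 and Meis2; other members are named to describe their list. Of 23 lists, 7 listed genes were not tested, 3 further genes are not reported here and are left out of their lists, and Cyp26a1 and Sox17 each stand in 2 lists. The comparison, the lists and the alternatives were chosen with earlier results of these data known.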

Additional observations from a re-analysis of the deposited data

Results flagged for a closer look

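In groups of 4 or 5 embryos, a regional difference (log2 CPM) was picked out where 1 embryo lay far from the others; 21 of 248 groups were picked out (8.47%), and chance alone does so in about 1 in 20. Among genes, DKO embryo 1 stood apart for Pgm5 at 2.06 (nearest embryo 0.43) and for Gfra1 at −1.93 (nearest −1.30), DKO embryo 2 for Spon2 at 1.58 (nearest 0.68) and for Hoxa4 at −1.42 (nearest −0.57), and DKO embryo 3 for Hoxd10 at 6.51 (nearest 8.72) and Pknox1 at 0.055 (nearest −0.22). Control embryo 2 stood apart for Meis2 at −0.65 (nearest −0.41) and Nkd2 at 1.22 (nearest 0.60). Control embryo 3 did so for Hoxd8 at 1.45 (nearest 3.99) and Hoxd9 at 1.32 (nearest 5.90), both in the direction of a flatter Hox contrast. Control embryo 5 did so for Pbx4 at −1.61 (nearest −0.58), Pknox1 at −0.47 (nearest −0.25) and the macrophage receptor Csf1r at 1.98 (nearest 0.11). Gm38287 at 6.56 in DKO embryo 3 and Gm10273 at −5.93 in control embryo 4 were genes with no counts in most libraries, and the other embryos of their group were at 0.

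Mean differences of whole lists were picked out for control embryo 2 in the deleted genes (−0.79, nearest −0.49), the dermomyotome and myotome genes (−2.20, nearest −1.84) and the neural crest genes (−0.88, nearest −0.39). The list of Hox groups 5 to 8 was picked out for control embryo 3 (0.71, nearest 1.34), glycolysis and hypoxia genes for control embryo 4 (0.32, nearest 0.17), and the TALE partners for control embryo 5 (−0.61, nearest −0.37).

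Among the 99 genes chosen for naming, 20 of them for an absence of overlap, there were 4 in which every control embryo had a regional difference of one sign and every DKO embryo the other. The difference of the group means was 1.03 for Pgm5, 0.98 for Hebp1 and 0.58 for Ccng1, with DKO embryos above 0, and −0.98 for Ephb1, with DKO embryos below 0. In the edgeR test none of these passed: the Benjamini-Hochberg adjusted p was 0.851 for Pgm5, 0.668 for Hebp1, 0.361 for Ccng1 and 0.361 for Ephb1.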

How the results depend on the processing

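The count of genes past the threshold was 0 with no replicate block, limma, the other scalings, the counts as deposited without rounding, a mean of at least 50 counts and somite number by region. It was 9 with DESeq2 (Ebf3, Ccng1, Nkd2, Bnc1, Itih5, Cdkn1c, Trim55, Gm10273 and Gm12184), 1 with sex label by region (Bnc1; control embryo 1 entered as female, against its own reads), and 0 to 2 when single embryos were left out (2 without DKO embryo 2). Among the 9 called by DESeq2, Gm10273 had no posterior count in controls, and its estimate was 26.7 with DESeq2 and 2.91 with limma. The count past the threshold was 295 with no filter, where 33216 genes entered and the fitted prior degrees of freedom were infinite, against a median of 5.53 with the filter. Genes at an unadjusted p under 0.05 numbered 567 with no replicate block, 1702 with no filter and 678 to 1841 when single embryos were left out. Genes without overlap numbered 443 with no filter and 424 to 1290 with fewer embryos, where overlap is rarer by construction. The DKO minus control difference of the spread went from 0.0192 to −0.00129 with no filter (exact permutation p = 0.992), and its cause was not tested. With single embryos left out, the median changed sign in 13 of the 23 lists and the estimate moved by over 1.5 times in 49 of the 99 genes chosen for naming. The list median ran from 0.0021 to 0.20 for the retinoic acid pathway, from 0.11 to 1.02 for Hox groups 9 to 13 and from −0.067 to 0.19 for presomitic mesoderm and segmentation. The sign of the estimate turned for Hoxd10 (−0.073 without control embryo 3, up to 5.78 without DKO embryo 3), Fcer1g (−0.81 without DKO embryo 4 to 0.019 without control embryo 5) and Csf1r (−0.24 without DKO embryo 4 to 0.69 without control embryo 5), with the cause not tested. Depth limits the Hox genes of groups 9 to 13 and the macrophage genes, which were near 0 in 1 piece or both.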

Other observations

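A930024N18Rik, Nkd2, Itih5, Trim55 and Lrrn4 were chosen after their values were seen. The noncoding gene A930024N18Rik (chr17:15375000-15379475, plus strand) overlaps the Dll1 gene (chr17:15367354-15376872, minus strand) on the other strand. It was at 0.264, 0.258, 0.353, 0.272 and 0.327 CPM posteriorly in control embryos 1 to 5 and at 3.29, 1.81, 3.36 and 2.66 CPM in DKO embryos 1 to 4, every DKO embryo above every control. Anteriorly it was at 0.51, 0.31, 0.311, 0.287 and 0.259 CPM in controls and 1.03, 0.927, 0.289 and 0.449 CPM in DKO embryos, and its estimate was 2.28 (SE 0.57, edgeR adjusted p = 0.657). Whether strand was used in counting is not given in the sources used here, so reads in the stretch that it shares with Dll1 cannot be told apart. The rest of A930024N18Rik lies outside the Dll1 gene.

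Nkd2, an inhibitor of Wnt signalling, was at 32.9, 23.2, 36.7, 37 and 34.5 CPM anteriorly in controls and 14.4, 29.6, 16.1 and 17.6 CPM in DKO embryos, and at 48, 54.3, 55.2, 56.1 and 52.2 and 63, 69.1, 55.6 and 47.4 CPM posteriorly. The lower anterior levels of DKO embryos 1, 3 and 4 go with an estimate of 0.93 (SE 0.19, edgeR adjusted p = 0.499). Itih5 was at 17.7, 19.8, 13.4, 15.8 and 16.7 CPM anteriorly in controls and 28.9, 16, 33.6 and 25.2 CPM in DKO embryos, with an estimate of −1.09 (SE 0.27), and DKO embryo 2 alone lay within the controls. Trim55, a sarcomere protein, was at 1.48, 3.09, 2.32, 1.84 and 3.27 CPM posteriorly in controls and 0.833, 1.05, 1.23 and 0.102 CPM in DKO embryos, all below the controls. Lrrn4, which like Upk3b and Bnc1 is made by mesothelium, was at 1.53, 1.74, 3.58, 2.18 and 1.88 CPM anteriorly in controls and 0.543, 0.772, 1.5 and 1.45 CPM in DKO embryos, all below the controls, and its estimate was 0.84 (SE 0.47, edgeR adjusted p = 0.851), or 0.30 without DKO embryo 1. Wt1, also made by mesothelium, had an estimate smaller than its SE, as given above. Msln and Upk1b were looked up with Lrrn4, and no estimate is given for them. Nothing is read from these genes about mesothelium as a whole.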
